A study of Mus musculus with 23 samples.

Results

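The 10 genes described here carry the steps of MHC class I antigen presentation: the heavy chains H2-K1, H2-D1 and H2-T23, the light chain B2m, the peptide transporter and loading genes Tap1, Tap2 and Tapbp, the immunoproteasome subunits Psmb8 and Psmb9, and the transactivator Nlrc5. They were taken by symbol, and all 10 were found among the 33280 genes of the count table. The 23 libraries are bulk RNA-seq of macrophages sorted from the brains of Ccr2creERT2/+ R26tdT/tdT mice, in which tamoxifen leaves cells that expressed the monocyte receptor Ccr2 with tdTomato (tdT). The mice received vehicle (CTL) or the CSF-1R inhibitor BLZ945 at 200 mg/kg for 7 days to deplete brain macrophages, then tamoxifen at 2 mg on 3 days. After 8 weeks a stroke was induced with thrombin in the middle cerebral artery, and cells were sorted 1 day after it. Every group thus had both tamoxifen and stroke, and no library shows an uninjured brain.

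Microglia (MG; CD206-negative, 5 CTL and 5 BLZ945 libraries) and subdural border macrophages (sdCAMs; CD206-positive, from the leptomeninges and perivascular spaces) were sorted from the same coronal slices without choroid plexus. The sdCAMs were split into tdT- CTL (5 libraries), tdT- BLZ945 (5) and tdT+ BLZ945 (3, from F2, F3 and M2). A tdT+ sdCAM descends from a cell that expressed Ccr2 around the end of treatment, while a tdT- sdCAM may be a survivor, its offspring, or a monocyte-derived cell that escaped recombination. CTL libraries hold cells of 1 animal and BLZ945 libraries pooled cells of 2 animals, except F2 with 1. Libraries keep their label names (F1 to F3, M1, M2), and the same name within a treatment marks the same animal or pool. An animal number in the label of BLZ945 F2 also stands in that of BLZ945 M1, so these may share an animal.

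MHC class I molecules display peptides from the cell's own proteins to CD8 T cells and signal health to NK cells. The proteasome cuts proteins into peptides, the TAP1–TAP2 transporter carries them into the endoplasmic reticulum, tapasin (Tapbp) bridges the transporter to empty heavy chains, and the loaded heavy chain travels to the surface with beta-2-microglobulin (B2m). Interferons raise most of these genes, swap constitutive proteasome subunits for Psmb8, Psmb9 and Psmb10, and induce Nlrc5, which binds no DNA itself but is recruited to an X-box module of class I promoters.

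In GENCODE M21 (GRCm38), 8 of the 10 genes lie on chromosome 17, in or beside the MHC, from Tapbp (chr17:33915899-33929292) and H2-K1 (chr17:33996017-34000347) through Psmb9 (chr17:34181987-34187764), Tap1 (chr17:34187553-34197225), Psmb8 (chr17:34197721-34201454) and Tap2 (chr17:34203527-34216321) to H2-D1 (chr17:35262730-35267499) and H2-T23 (chr17:36029773-36032855). B2m (chr2:122147686-122153083) and Nlrc5 (chr8:94434356-94527272) lie elsewhere. Psmb9 and Tap1 are transcribed away from each other from neighbouring start sites. The stretches upstream of the RefSeq start sites of H2-K1 and H2-D1, and the one between those of Psmb9 and Tap1, are given because H2-K1, H2-D1 and Psmb9 were called between the cell types in each comparison and Tap1 in none (GRCm38.p6, 5′ to 3′; H2-K1 from the minus strand of chr17:34000348-34000547, H2-D1 from the plus strand of chr17:35262894-35263093, Psmb9–Tap1 from the plus strand of chr17:34187331-34187555). Capitals mark matches, on either strand, to a kappa B-like motif (GGG and TTCCC with 2 bases between), an interferon response element core (GAANNGAAA), an X2 box-like motif (TGACGC) and the inverted CCAAT box (ATTGG).
H2-K1: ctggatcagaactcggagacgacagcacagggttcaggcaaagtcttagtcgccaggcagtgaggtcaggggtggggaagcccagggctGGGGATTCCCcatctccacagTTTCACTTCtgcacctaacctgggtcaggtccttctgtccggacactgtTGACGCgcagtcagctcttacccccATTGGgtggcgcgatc
H2-D1: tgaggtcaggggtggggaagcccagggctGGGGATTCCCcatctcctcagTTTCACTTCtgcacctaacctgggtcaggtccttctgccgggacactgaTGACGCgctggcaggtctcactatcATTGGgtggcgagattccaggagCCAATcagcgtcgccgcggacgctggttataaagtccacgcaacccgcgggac
Psmb9-Tap1: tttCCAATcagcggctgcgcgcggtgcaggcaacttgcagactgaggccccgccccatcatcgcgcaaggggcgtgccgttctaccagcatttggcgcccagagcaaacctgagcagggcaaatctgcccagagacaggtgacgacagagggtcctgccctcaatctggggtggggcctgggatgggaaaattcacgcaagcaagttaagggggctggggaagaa

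H2-K1 and H2-D1 held the kappa B-like, interferon and X2 box-like matches in the same order and at the same spacing, 21 bases from the start of the first to the start of the second and 49 from the second to the third. RefSeq promoters were found for 8 of the 10 members, and in their 250 bases before the start site only these 2 genes held any of the 3 motifs. Among 27025 promoters of that length, 1.44% held the kappa B-like motif, 6.34% the interferon core, 6.14% the X2 box-like motif and 34.5% the inverted CCAAT box. The stretch between Psmb9 and Tap1 held an inverted CCAAT box only. A match of letters is not a measured binding site, and a missing match says nothing about the factor.

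Library totals ran from 9433960 to 13276081 counts, and levels are given as CPM, the counts scaled for the library total and edgeR's TMM factor. The sort labels held: the summed level of 7 microglial markers was 18710 to 29030 CPM in MG and 1439 to 2805 CPM in sdCAMs, and that of 7 sdCAM markers was 8754 to 14390 CPM in sdCAMs and 11.7 to 48.7 CPM in MG. Summed monocyte markers reached 240.0 CPM in the tdT- BLZ945 library F1, where the median of that group was 48.1 CPM and the highest values of tdT- CTL and tdT+ sdCAMs were 45.2 and 52.2 CPM. Globin transcripts reached 299 CPM in the tdT- BLZ945 library F2. Dendritic cell markers summed to 219.6 to 780.2 CPM in tdT- CTL, 31.4 to 209 CPM in tdT- BLZ945 and 34.8 to 88.2 CPM in tdT+ sdCAMs, against 14.2 to 24.5 CPM in MG, and Cd209a made up most of the sum in tdT- CTL (mean 441 CPM). Zbtb46 was also higher in sdCAMs, with means of 21.02 CPM in tdT- CTL, 15.7 CPM in tdT- BLZ945 and 14.8 CPM in tdT+ sdCAMs, against 3.42 and 2.91 CPM in MG CTL and BLZ945. Flt3 was 1.40 CPM in tdT- CTL and 1.85 CPM in MG CTL, but 5.16 and 3.87 CPM in the BLZ945 sdCAMs and 1.07 CPM in MG BLZ945. Ccr7 was at 45.6 CPM in 1 tdT- BLZ945 library and at 0 in the others of that group, with means under 1 CPM in the other groups. Itgax was lower in sdCAMs (0 in tdT- CTL, 2.00 CPM in tdT- BLZ945 and 1.38 CPM in tdT+, against 11.9 and 15.3 CPM in MG), and Xcr1 was at 0 in every sdCAM library. The 6 neuron and glia markers summed to 87.4 to 349.7 CPM in sdCAMs and 34.8 to 76.1 CPM in MG, with Snap25 at a mean of 36.8 CPM in tdT- CTL and 5.88 CPM in MG CTL. The 7 T and NK cell markers summed to 80.9 to 123 CPM in tdT- CTL, 31.4 to 69.5 CPM in tdT- BLZ945 and 2.201 to 3.46 CPM in tdT+ sdCAMs, against at most 1.60 CPM in MG. Cd4 made up most of that sum (mean 98.6 CPM in tdT- CTL), while Cd8a was at 0 in every library and Cd3d, Cd3e and Cd3g had means of at most 0.429 CPM. The part of these markers in the differences between sdCAMs and MG was not tested. Because these are bulk sorts, a higher level cannot be told apart from a larger share of cells that carry the transcript.

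Between 5 and 8 of the 10 members were higher in sdCAMs than in MG, in controls and after repopulation. In CTL, 8 of 10 were called higher in tdT- sdCAMs (edgeR quasi-likelihood test, Benjamini-Hochberg adjusted p under 0.05 over all genes tested) and none lower, where 15.3% of the 12697 genes tested were called higher and 10.3% lower. In BLZ945 mice, 6 of 10 were called higher in tdT- sdCAMs than in MG (18.3% of all genes tested higher, 14.1% lower), and 5 of 10 in tdT+ sdCAMs (14.6% higher, 10.6% lower). The median log2 fold change over the members was 0.68, 0.62 and 0.76 in these comparisons, beside -0.01, -0.02 and -0.01 over all genes tested. The groups did not overlap, with every sdCAM library above every MG library, for 7 of 10 members in CTL (14.7% of all genes), for 4 in the tdT- BLZ945 comparison (10.4%) and for 7 in the tdT+ comparison (16%). Both BLZ945 comparisons share their MG libraries, and the comparisons among sdCAMs described further on share sdCAM libraries with these.

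**Figure D1:**
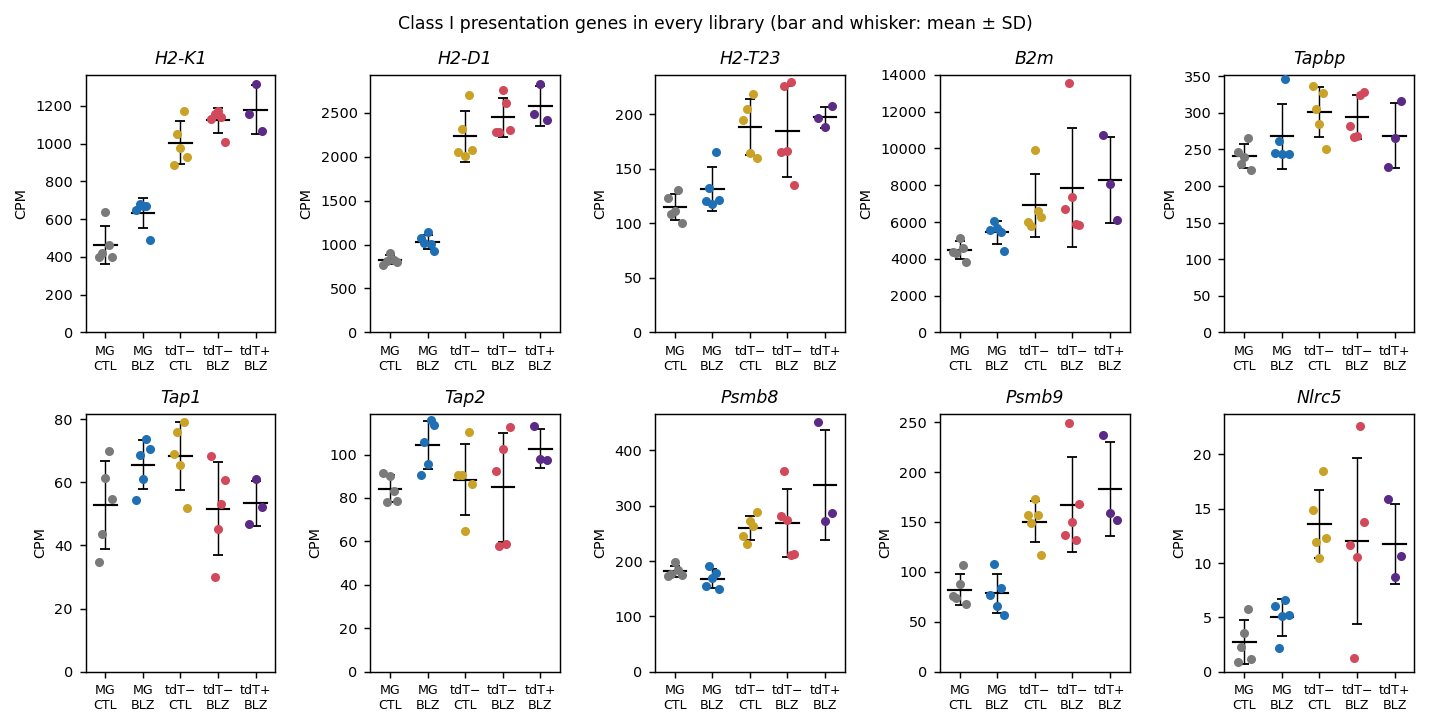
Level of each of the 10 genes in CPM (linear axes from 0) in every library of the 5 groups; points are libraries, horizontal bars are group means and whiskers are SD. H2-K1, H2-D1, Psmb8 and Psmb9 are higher in all 13 sdCAM libraries than in all 10 MG libraries. The other members overlap between the cell types. Of the 13 sdCAM libraries, 12 lie above all MG libraries for Nlrc5, 9 for B2m and for H2-T23, 2 for Tap1 and 0 for Tap2 and Tapbp.

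The classical heavy chains were separated between the cell types by more than the spread of the libraries. H2-D1 was 767, 817, 908, 825 and 807 CPM in MG CTL (F1, F2, F3, M1, M2) and 2056, 2315, 2007, 2707 and 2082 CPM in tdT- sdCAM CTL. After BLZ945 the levels were 1078, 1017, 1138, 1009.6 and 926 CPM in MG, 2284, 2288, 2759, 2614 and 2308 CPM in tdT- sdCAMs, and 2487, 2834 and 2414 CPM in tdT+ sdCAMs (F2, F3, M2). No sdCAM library came near the highest MG library, and the 3 sdCAM groups overlapped.

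H2-D1 exceeded its MG level 2.72-fold in tdT- sdCAMs of CTL mice (log2 fold change 1.44, SE 0.10, edgeR adjusted p = 4.68e-10), 2.39-fold in BLZ945 mice (1.26, SE 0.10, adjusted p = 4.11e-09) and 2.50-fold in tdT+ sdCAMs (1.32, SE 0.11, adjusted p = 4.12e-09). The order of group means was MG CTL (825 ± 51.6 CPM, SD, n = 5), MG BLZ945 (1034 ± 79.7, n = 5), tdT- sdCAM CTL (2233 ± 290.4, n = 5), tdT- sdCAM BLZ945 (2451 ± 222, n = 5) and tdT+ sdCAM BLZ945 (2578.5 ± 224, n = 3). MG BLZ945 lay above MG CTL in every library, while neighbours among the sdCAM groups differed by less than their SD.

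H2-K1, the other classical heavy chain, followed the same order. It was 398, 421, 639, 464 and 401 CPM in MG CTL, and 889, 1054, 977, 1175 and 932 CPM in tdT- sdCAM CTL. The BLZ945 libraries had 646, 680.0, 671, 672 and 492 CPM in MG, 1132, 1158, 1175, 1143 and 1008 CPM in tdT- sdCAMs, and 1156, 1319 and 1065 CPM in tdT+ sdCAMs. The lowest sdCAM library, 889 CPM, lay above the highest MG library, 680.0 CPM.

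The difference of H2-K1 from MG was 1.12 on the log2 scale in CTL (SE 0.13, 2.18-fold, edgeR adjusted p = 8.26e-07), 0.84 in tdT- BLZ945 (SE 0.13, 1.79-fold, adjusted p = 3.38e-05) and 0.90 in tdT+ BLZ945 (SE 0.15, 1.87-fold, adjusted p = 5.47e-05). Within a library, the log2 ratio of H2-D1 to H2-K1 counts was 0.85 ± 0.20 for CTL and 0.72 ± 0.14 for BLZ945 MG (SD, n = 5 each), 1.15 ± 0.07 for CTL and 1.12 ± 0.12 for BLZ945 tdT- sdCAMs (n = 5 each) and 1.13 ± 0.04 for tdT+ sdCAMs (n = 3). The means were higher in sdCAMs, but the cell types overlapped, with tdT- BLZ945 F2 at 0.982 and MG CTL M2 at 1.01. This comparison was chosen after the values were seen and not tested. Of the 50-base windows of the longest transcript, 14.3% in H2-D1 and 8.79% in H2-K1 also occur in transcripts of other genes, mostly class I genes and pseudogenes. For windows of 100 bases these shares were 4.64% and 0%, so a small part of the reads could be assigned to either copy or dropped.

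H2-T23 encodes the heavy chain of Qa-1, a non-classical molecule that presents leader peptides of other class I chains to NK receptors. It was 115 ± 11.8 CPM (SD, n = 5) in MG CTL, 131 ± 19.9 in MG BLZ945 (n = 5), 188 ± 25.4 in tdT- CTL (n = 5), 184 ± 41.6 in tdT- BLZ945 (n = 5) and 197 ± 9.71 in tdT+ BLZ945 (n = 3). All 5 CTL sdCAM libraries, from 159.7 to 218 CPM, lay above the CTL MG libraries, from 101 to 130.2 CPM. The difference from MG was called in CTL (log2 fold change 0.72, SE 0.15, edgeR adjusted p = 0.000782), in tdT- BLZ945 (0.50, SE 0.15, adjusted p = 0.0125) and in tdT+ BLZ945 (0.59, SE 0.16, adjusted p = 0.0104). In tdT- BLZ945 the groups overlapped, since M2 had 135 CPM and the highest MG library 166 CPM. H2-T23 shares 28.8% of its 50-base windows with other genes, the highest share among the members.

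**Figure D2:**
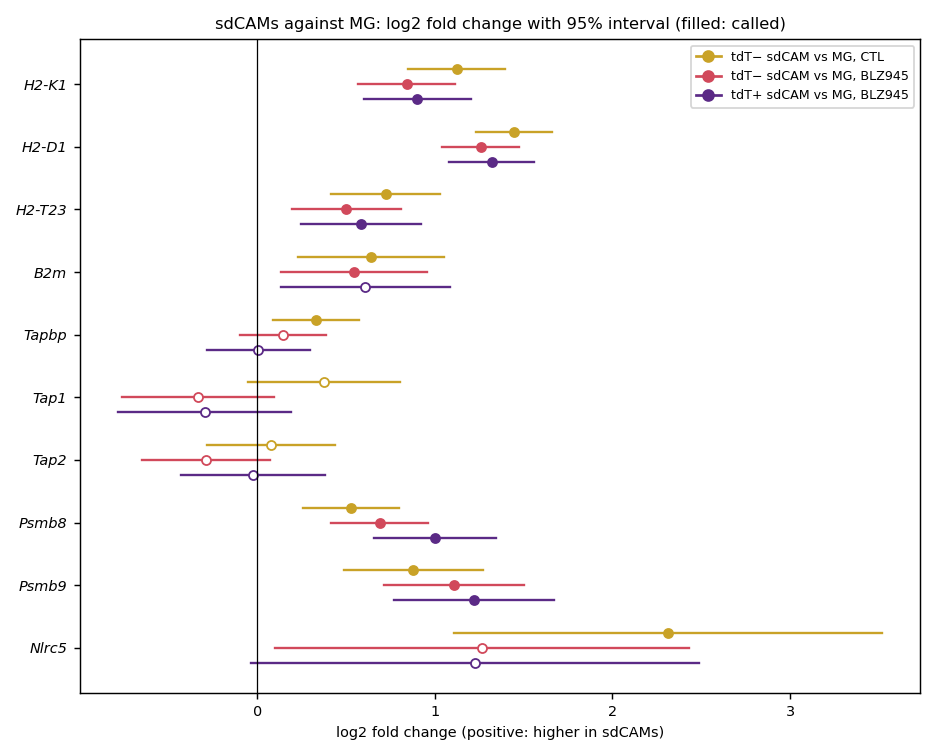
Log2 fold change of each gene between sdCAMs and MG (x axis; positive is higher in sdCAMs) with its 95% interval, in CTL mice and, for tdT- and tdT+ sdCAMs, in BLZ945 mice; filled points passed an adjusted p of 0.05. Heavy chains, Psmb8 and Psmb9 are filled in all 3 comparisons, B2m in 2, Tapbp and Nlrc5 in CTL only and Tap1 and Tap2 in none.

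B2m, the shared light chain, was the most abundant member on a length-corrected scale in every group. Dividing CPM by the length of the longest GENCODE M21 transcript gave 5179 ± 569 CPM per kilobase (SD, n = 5) for B2m in MG CTL, beside 393 ± 24.5 for H2-D1 and 287 ± 62.3 for H2-K1. In tdT- sdCAM CTL the same values were 8031 ± 1974, 1063 ± 138 and 621 ± 69.7 CPM per kilobase.

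B2m was 4367, 4334, 5152, 4612 and 3803 CPM in MG CTL and 6021, 5758, 9894, 6579 and 6282 CPM in tdT- sdCAM CTL. In BLZ945 mice it was 5582, 6069, 5682, 5463 and 4411 CPM in MG, 6728, 13535, 7365, 5882 and 5836 CPM in tdT- sdCAMs, and 10742, 8060.2 and 6096 CPM in tdT+ sdCAMs. F3 stood far above the other tdT- CTL libraries and F2 far above the other tdT- BLZ945 libraries, and F2 was highest in MG and tdT+ too.

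B2m was called higher in tdT- sdCAMs than in MG in CTL (1.56-fold, log2 fold change 0.64, SE 0.20, edgeR adjusted p = 0.0197) and in BLZ945 mice (1.46-fold, 0.54, SE 0.20, adjusted p = 0.0396), but not in tdT+ sdCAMs (1.53-fold, 0.61, SE 0.23, adjusted p = 0.0539). With the animal as a replicate block the tdT+ difference was called (0.49, adjusted p = 0.0315). It was also called by DESeq2 (0.66, adjusted p = 0.0255), with DESeq2's size factors (0.0397) and with at least 10 counts in every library (0.0409). A fit of the 8 compared libraries (0.0207) and the fit without the tdT+ library M2 (0.0255) called it too. The latter was the only 1 of 8 fits without 1 library to do so. These 8 fits gave a tdT+ difference of 0.38 to 0.79, with edgeR adjusted p up to 0.330. The CTL call was lost in 2 of 10 fits without 1 library (MG M2, adjusted p = 0.0521, and tdT- F3). The tdT- BLZ945 call was lost in 6 of 10 such fits, in the fit of all 23 libraries (0.0506) and with the looser filter (0.0528). Without the tdT- CTL library F3 the CTL difference was 0.45 (adjusted p = 0.0986), and without the tdT- BLZ945 library F2 the BLZ945 difference was 0.25 (adjusted p = 0.217). The same libraries had high levels of other short transcripts. Over 302 genes with a longest transcript under 1000 bases, the median deviation from the group mean was 0.27 on the log2 scale in tdT- CTL F3, 0.52 in tdT- BLZ945 F2, 0.31 in tdT+ F2 and 0.27 in MG BLZ945 F2, the highest of each group. The tdT- CTL library M2 had a median deviation of 0.25 with a B2m level of 6282 CPM. The B2m transcript is 860 bases long. The part of transcript length in the B2m difference was not tested.

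Tap1, a subunit of the transporter, was 34.8, 43.5, 61.4, 69.9 and 54.8 CPM in MG CTL and 69.1, 75.8, 65.6, 79.2 and 51.8 CPM in tdT- sdCAM CTL. After BLZ945 the levels were 54.2, 68.5, 61.1, 73.6 and 70.4 CPM in MG, 68.4, 30.1, 45.3, 53.2 and 60.8 CPM in tdT- sdCAMs, and 46.9, 61.0 and 52.2 CPM in tdT+ sdCAMs. The ranges of all 5 groups overlapped, and the lowest library of all was tdT- BLZ945 F2.

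For Tap1, the log2 difference of sdCAMs from MG was 0.38 in CTL (95% interval -0.05 to 0.80, edgeR adjusted p = 0.206), -0.33 in tdT- BLZ945 (-0.76 to 0.09, adjusted p = 0.230) and -0.30 in tdT+ BLZ945 (-0.78 to 0.19, adjusted p = 0.389). The upper bounds leave out a difference of the size seen for H2-D1 in each comparison. Tap2, the partner subunit, was 84.2 ± 6.23 CPM for CTL and 104 ± 11.1 for BLZ945 MG (SD, n = 5 each), 88.5 ± 16.3 for CTL and 84.9 ± 25.2 for BLZ945 tdT- sdCAMs (n = 5 each) and 103 ± 8.96 for tdT+ sdCAMs (n = 3). Its log2 difference from MG was 0.08 (adjusted p = 0.808), -0.29 (adjusted p = 0.223) and -0.02 (adjusted p = 0.954).

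Tapbp, which encodes tapasin, was between these patterns. It was 241 ± 16.5 CPM for CTL and 268 ± 44.4 for BLZ945 MG (SD, n = 5 each), 301 ± 34.5 for CTL and 294 ± 30.0 for BLZ945 tdT- sdCAMs (n = 5 each) and 269 ± 44.8 for tdT+ sdCAMs (n = 3). It was called higher in tdT- sdCAMs of CTL mice by 0.33 on the log2 scale (SE 0.12, edgeR adjusted p = 0.0413). That call was lost in 8 of 10 fits without 1 library (adjusted p up to 0.131) and in the fits of all 23 libraries (0.0599) and with the looser filter (0.0696). After BLZ945 its difference was 0.15 (adjusted p = 0.364) in tdT- and 0.01 (adjusted p = 0.982) in tdT+ sdCAMs. The library kit keeps no strand, and in GENCODE M21 24.9% of the Tapbp exon bases lie opposite Gm19412, 14.1% of those of Tap2 opposite Gm15821 and 14.7% of those of Psmb8 opposite Gm20496, whose reads cannot be told apart where exons overlap.

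The immunoproteasome subunits Psmb8 and Psmb9 were called higher in sdCAMs in all 3 comparisons with MG. Psmb8 (LMP7), which replaces Psmb5, was 172, 176, 198, 184 and 175 CPM in MG CTL and 245, 231, 272.7, 262.6 and 288 CPM in tdT- sdCAM CTL. The BLZ945 libraries had 154, 191, 169, 178 and 149 CPM in MG, 282.1, 363, 274.9, 211 and 213 CPM in tdT- sdCAMs, and 451, 272.2 and 287 CPM in tdT+ sdCAMs. Every sdCAM library was above every MG library, and F2 was the highest of each BLZ945 group.

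Psmb8 was called higher than in MG by 0.53 on the log2 scale in CTL (SE 0.13, edgeR adjusted p = 0.00393), by 0.69 in tdT- BLZ945 (SE 0.13, adjusted p = 0.000313) and by 1.00 in tdT+ BLZ945 (SE 0.17, adjusted p = 7.49e-05). Psmb9 (LMP2), which replaces Psmb6, was 75.7, 73.9, 87.4, 107 and 67.9 CPM in MG CTL and 157, 149, 173, 157 and 117 CPM in tdT- sdCAM CTL. In BLZ945 mice it was 77.2, 108, 65.8, 84.0 and 56.4 CPM in MG, 137, 248.7, 150.4, 132 and 168 CPM in tdT- sdCAMs, and 237, 159 and 152 CPM in tdT+ sdCAMs. All 13 sdCAM libraries again lay above all 10 MG libraries.

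The Psmb9 difference from MG was 0.88 on the log2 scale in CTL (SE 0.19, edgeR adjusted p = 0.00122), 1.11 in tdT- BLZ945 (SE 0.19, adjusted p = 0.000108) and 1.22 in tdT+ BLZ945 (SE 0.22, adjusted p = 0.000174). The calls of H2-K1, H2-D1, H2-T23, Psmb8 and Psmb9 stood in each fit without 1 library in all 3 comparisons, with adjusted p of at most 0.0424. Psmb9 and Tap1 start from 1 stretch of DNA, and the log2 ratio of their counts within a library was 0.66 ± 0.31 for CTL and 0.23 ± 0.38 for BLZ945 MG (SD, n = 5 each), 1.14 ± 0.18 for CTL and 1.71 ± 0.79 for BLZ945 tdT- sdCAMs (n = 5 each) and 1.76 ± 0.51 for tdT+ sdCAMs (n = 3). This ratio was chosen after the values were seen and was not tested. It was highest in tdT- BLZ945 F2, at 3.05, where short transcripts were high. In GENCODE M21 the genes overlap on opposite strands over 212 exon bases, 5.79% of those of Psmb9 and 3.87% of those of Tap1.

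Within a library, the ratio of Psmb9 to the constitutive Psmb6 was higher in sdCAMs than in MG on average. The log2 ratio of Psmb9 to Psmb6 counts was -1.95 ± 0.43 in MG CTL and -1.93 ± 0.39 in MG BLZ945 (SD, n = 5), against -0.86 ± 0.44 for CTL and -0.75 ± 0.22 for BLZ945 tdT- sdCAMs and -0.69 ± 0.08 for tdT+ sdCAMs (n = 3). That of Psmb8 to Psmb5 was 1.62 ± 0.22, 1.69 ± 0.10, 2.22 ± 0.21, 2.22 ± 0.41 and 2.86 ± 0.55 in the same order of groups. For Psmb10 to Psmb7 it was 0.98 ± 0.21, 0.93 ± 0.27, 1.32 ± 0.22, 1.18 ± 0.23 and 1.43 ± 0.39, with overlap between the cell types. The cell types also overlapped in 1 sdCAM library for each of the other ratios, M2 of tdT- BLZ945 for Psmb8 to Psmb5 (1.51, against up to 1.80 in MG) and M2 of tdT- CTL for Psmb9 to Psmb6 (-1.62, against up to -1.45 in MG). These ratios are descriptions and carry no test.

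**Figure D3:**
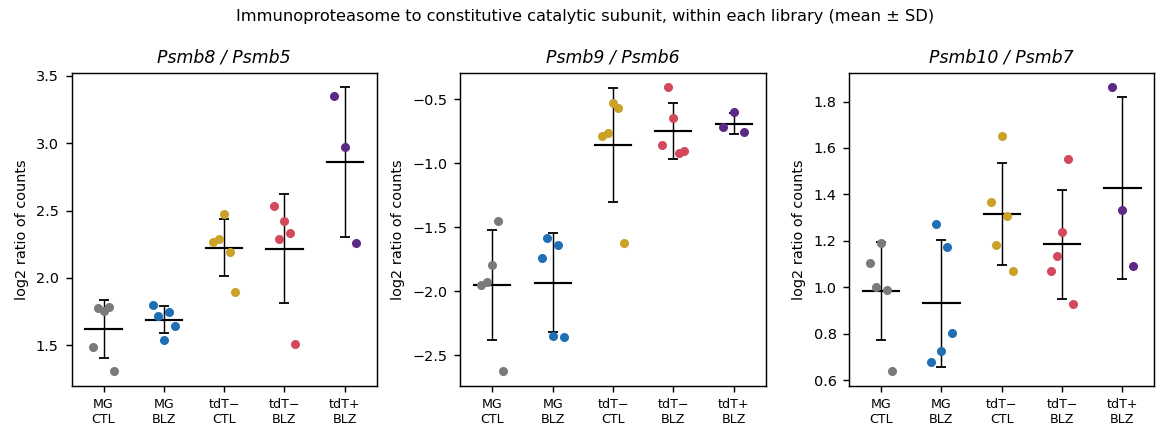
Log2 ratio of counts of the immunoproteasome subunit to the constitutive subunit it replaces, for each library in the 5 groups; bars are means and whiskers SD. The Psmb9 to Psmb6 means are -1.95 and -1.93 in MG and -0.86, -0.75 and -0.69 in sdCAMs.

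Nlrc5, the transactivator of class I genes, was the least abundant member, with 10 to 238 counts in a library. It was 0.918, 2.28, 3.59, 5.81 and 1.15 CPM in MG CTL and 14.9, 12.0, 10.5, 18.5 and 12.3 CPM in tdT- sdCAM CTL. After BLZ945 the levels were 6.02, 2.18, 5.12, 6.56 and 5.24 CPM in MG, 11.7, 1.298, 10.5, 22.6 and 13.8 CPM in tdT- sdCAMs, and 15.9, 8.71 and 10.6 CPM in tdT+ sdCAMs. All sdCAM libraries but tdT- BLZ945 F2 lay above all MG libraries. In that library, with 12 Nlrc5 counts, Tap1, Tap2 and Tapbp were also the lowest of their group and B2m, Psmb8 and Psmb9 the highest. H2-K1 and H2-T23 were neither (1158 and 226 CPM). The part of transcript length in these levels was not tested.

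In CTL mice the Nlrc5 level of tdT- sdCAMs was 4.97-fold that of MG (95% interval of the log2 fold change 1.11 to 3.52, edgeR adjusted p = 0.00458). In BLZ945 mice the log2 difference was 1.27 in tdT- (SE 0.56, adjusted p = 0.0899) and 1.22 in tdT+ sdCAMs (SE 0.61, adjusted p = 0.149). The first of these was called by DESeq2 with all libraries (1.304, adjusted p = 0.0464) and by edgeR without F2 of tdT- BLZ945 (1.55, adjusted p = 0.0142).

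BLZ945 repopulation did not move any member past the threshold in MG. No member of 10 was called between BLZ945 and CTL, where 0.408% of the 11264 genes tested were, and 4 members had an unadjusted p under 0.05, as did 1492 of all genes tested. DESeq2 called 238 of the 11264 genes, among them 1 member, H2-D1 (log2 fold change 0.31, adjusted p = 0.0268). The log2 fold change of H2-K1 was 0.43 (95% interval 0.15 to 0.72, edgeR adjusted p = 0.177), that of H2-D1 0.31 (0.12 to 0.51, adjusted p = 0.152), that of Tap2 0.30 (0.08 to 0.52, adjusted p = 0.234) and that of B2m 0.28 (0.05 to 0.50, adjusted p = 0.279). H2-D1 was the only member whose MG groups did not overlap (1.67% of genes tested were higher in this way). Without the CTL library F3, which had the highest H2-K1 level of its group, H2-K1 rose by 0.58 (adjusted p = 0.0394).

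In MG the intervals of the other members included 0, as for Tap1 (0.30, -0.05 to 0.65), H2-T23 (0.18, -0.06 to 0.43) and Tapbp (0.14, -0.09 to 0.38). Psmb8 (-0.12, 95% interval -0.32 to 0.08) and Psmb9 (-0.08, -0.43 to 0.26) were the only members with a negative log2 fold change. Nlrc5 had the largest estimate, 0.86, with an interval of -0.18 to 1.90. The median over the members was 0.29, beside 0.00 over all genes tested. The 6 monocyte markers summed to 38.7 to 94.4 CPM in MG BLZ945 and 9.92 to 32.7 CPM in MG CTL, and Fn1 made up most of the sum in BLZ945 (mean 56.7 against 11.3 CPM in CTL). Means of Ccr2 (4.02 against 5.97 CPM), Plac8 (0.962 against 4.00 CPM) and Vcan (0.410 against 0.627 CPM) were lower in BLZ945, and those of Chil3 (2.31 against 0.499 CPM) and Ly6c2 (0.104 against 0.0521 CPM) higher. The 4 B cell markers summed to 3.01 to 9.63 CPM in MG BLZ945 and 30.9 to 49.5 CPM in MG CTL, most of it Cd79b. The part of these markers in the values above was not tested.

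In tdT- sdCAMs no member was called between BLZ945 and CTL, and edgeR called none of the 13076 genes tested (0%), while 697 of all genes and 0 members had an unadjusted p under 0.05. DESeq2 called 56 genes, none of them a member. The members' log2 fold changes ran from -0.39 (Tap1, 95% interval -0.87 to 0.09) to 0.19 (B2m, -0.30 to 0.68). For H2-D1 the interval was -0.11 to 0.40 and for H2-K1 -0.07 to 0.41, so a change of H2-K1 or H2-D1 as large as that between cell types lay outside it.

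tdT+ and tdT- sdCAMs of BLZ945 mice gave no called difference in these genes. None of the 10 members was called (0.206% of 13076 genes tested), none had an unadjusted p under 0.05, and DESeq2 called none. H2-D1 differed by 0.06 (95% interval -0.23 to 0.35), H2-K1 by 0.06 (-0.22 to 0.34) and B2m by 0.06 (-0.50 to 0.62). The largest estimate was that of Psmb8, 0.31 (-0.11 to 0.72), for which F2 had 451 CPM and the other tdT+ libraries 272.2 and 287 CPM. Leaving out 1 library at a time gave 0.06 to 0.45 for Psmb8. With 3 tdT+ libraries, differences inside these intervals could not be seen.

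Against control tdT- sdCAMs, tdT+ sdCAMs of BLZ945 mice had no called member either (0.283% of genes tested; 0 members with an unadjusted p under 0.05, none by DESeq2). Log2 fold changes ran from -0.36 (Tap1) to 0.36 (Psmb8, lowest edgeR adjusted p of the members, 0.741). Of 6 class II genes, whose products present or load extracellular peptides, 3 were called higher and none lower, beside the same 0.283% of all genes. These were H2-Eb1, Cd74 and H2-DMa, by 1.90, 1.85 and 1.59 (edgeR adjusted p = 0.0348, 0.0244 and 0.0480), and H2-Aa (1.94), H2-Ab1 (1.86) and H2-DMb1 (1.03) were not called (adjusted p = 0.0549, 0.0602 and 0.405). The difference between class I and class II genes was not tested.

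The response to BLZ945 was compared between tdT- sdCAMs and MG by an interaction term. No member was called (0.0394% of 12697 genes tested), 1 had an unadjusted p under 0.05, as did 1104 of all genes tested, and DESeq2 called no member. That member was Tap1, with a difference of -0.71 (95% interval -1.32 to -0.11, edgeR adjusted p = 0.469): its mean was 52.9 CPM in CTL and 65.5 CPM in BLZ945 MG, and 68.3 CPM in CTL and 51.6 CPM in BLZ945 tdT- sdCAMs.

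**Figure D4:**
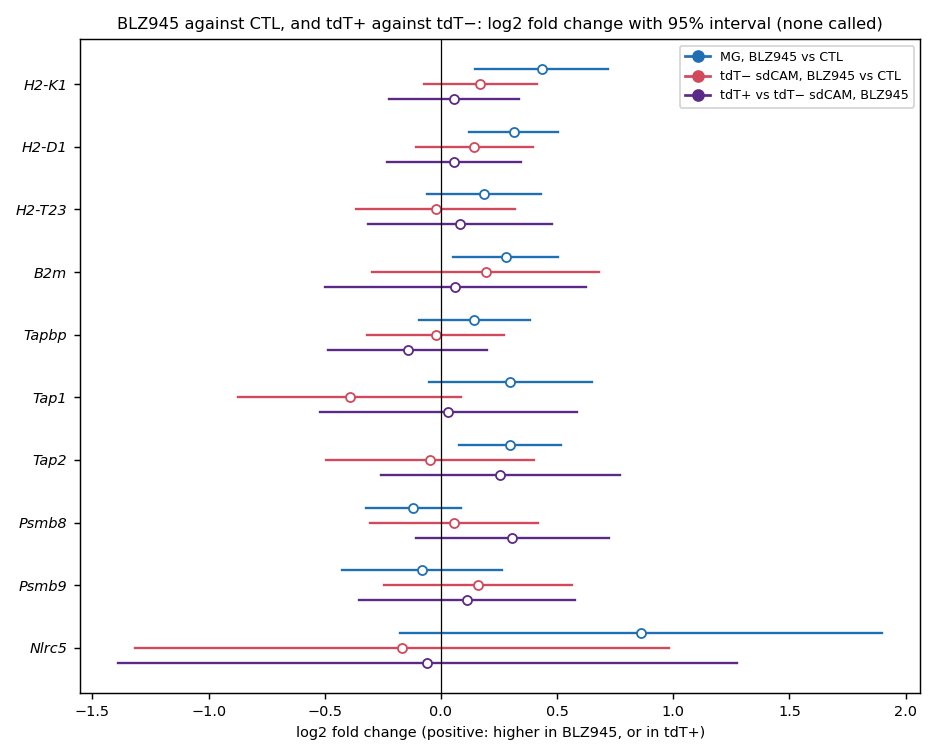
Log2 fold change of each gene with its 95% interval for BLZ945 against CTL in MG and in tdT- sdCAMs, and for tdT+ against tdT- sdCAMs of BLZ945 mice; open points did not pass an adjusted p of 0.05. All points are open, H2-K1 and H2-D1 of MG lie at 0.43 and 0.31, and the Nlrc5 intervals are the widest.

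Other genes of the pathway were read from the same fits, beginning with the remaining heavy chains. Their counts stand beside the shares of all genes called higher against MG, 15.3% in CTL, 18.3% in tdT- BLZ945 and 14.6% in tdT+ sdCAMs, and lower, 10.3%, 14.1% and 10.6%. Of 12 further class I heavy-chain genes, 8 were tested in CTL. H2-M3, a non-classical chain that presents formylated peptides, was called higher in tdT- sdCAMs in CTL (167 against 88.8 CPM, log2 fold change 0.92, edgeR adjusted p = 1.06e-06) and BLZ945 mice (0.56, adjusted p = 0.000441), and in tdT+ sdCAMs (0.50, adjusted p = 0.00668). H2-M2 was called lower in all 3 comparisons, at 3.43 CPM in MG CTL, 4.81 CPM in MG BLZ945 and at most 0.318 CPM in the mean of an sdCAM group. The median of the 8 genes was 0.85 in CTL, and the Q and T genes share much sequence, such as 34.9% of the 50-base windows of H2-Q7.

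Among 4 class I-like genes, Fcgrt, the neonatal Fc receptor chain that binds IgG and also pairs with B2m, was 1753 CPM in tdT- sdCAMs and 156 CPM in MG of CTL mice (log2 fold change 3.50, edgeR adjusted p = 4.76e-12). Hfe, a regulator of iron uptake, was higher by 0.76 (adjusted p = 0.000125). Both were called in the BLZ945 comparisons too, and the other genes of this list in no comparison with MG. The median of the 4 was 0.19 in CTL, and in BLZ945 mice -0.09 for tdT- and 0.63 for tdT+ sdCAMs. None of the 6 genes of peptide loading and trimming was called in the tdT- comparisons, with medians of -0.27 in CTL and -0.37 in BLZ945 mice. In tdT+ sdCAMs the trimming peptidase Erap1 was lower by 0.84 (55.7 against 99.5 CPM, adjusted p = 0.0382).

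Of 7 other proteasome genes, none was called in CTL, 2 were called higher in tdT- BLZ945 and 3 in tdT+ sdCAMs, where 15.3%, 18.3% and 14.6% of all genes were. In BLZ945 mice Psme1, a subunit of the interferon-inducible activator PA28, and Psmb10, the remaining immunoproteasome subunit, were called higher in tdT- sdCAMs (0.43, edgeR adjusted p = 0.00639, and 0.45, adjusted p = 0.0135). They were also called in tdT+ sdCAMs (0.64, adjusted p = 0.000729, and 0.57, adjusted p = 0.0155), together with Psme2 (0.49, adjusted p = 0.0148). The constitutive subunits Psmb5, Psmb6 and Psmb7 were called in none of the 3.

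In CTL, 3 of 12 transcriptional regulators of class I genes were called higher in tdT- sdCAMs and 1 lower, where 15.3% of all genes tested were called higher and 10.3% lower. Irf7 (142 against 33.3 CPM, log2 fold change 2.10, edgeR adjusted p = 6.45e-05), Stat2 (1.27, adjusted p = 0.000852) and Irf9 rose, while Nfya fell. In BLZ945 mice none was called in tdT- sdCAMs (18.3% of all genes higher, 14.1% lower). In tdT+ sdCAMs 2 of 13 tested, Rfxap and Ciita, were called higher and none lower, beside 14.6% and 10.6% of all genes. Of 12 interferon-stimulated genes, 5 were called higher and 1 lower in CTL, among them Oasl2 (163 against 20.8 CPM, 2.98, adjusted p = 9.62e-07), Usp18 (1.49, adjusted p = 0.000914) and Cxcl10 (-3.08, adjusted p = 7.36e-05). In tdT- BLZ945 1 was higher (Oasl2) and 2 were lower (Cxcl10 and Ifit2), and in tdT+ sdCAMs 2 were higher and 2 lower. The interaction term called none of the regulators or interferon-stimulated genes.

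The median log2 fold change of the interferon-stimulated genes was 1.07 in CTL mice, -0.09 for tdT- and -0.34 for tdT+ sdCAMs of BLZ945 mice, against 0.68, 0.62 and 0.76 for the class I members. The median of the interaction term over the 12 was -1.11, beside -0.03 over all genes tested. Between BLZ945 and CTL their median was 0.80 in MG and -0.33 in tdT- sdCAMs, and none of the 12 was called in either. Of the interferon receptors, the gamma receptor chains Ifngr1 and Ifngr2 were called lower in sdCAMs in all 3 comparisons (-0.54 and -0.70 in CTL, edgeR adjusted p = 0.000493 and 0.000589). Ifnar1 and Ifnar2, the type I receptor, were called higher in CTL (0.85 and 0.40, adjusted p = 0.0252 and 0.0414) and not called in the BLZ945 comparisons. Of 6 class II genes, 4 were called higher and 1, H2-DMa, lower in tdT- sdCAMs of CTL mice, beside 15.3% and 10.3% of all genes (H2-DMa was named after its values were seen, at -0.84, adjusted p = 0.0185). H2-Eb1 was higher by 4.70 in tdT- sdCAMs of CTL mice (adjusted p = 9.58e-10), and Cd74 by 3.96 (adjusted p = 1.63e-09).

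**Figure D5:**
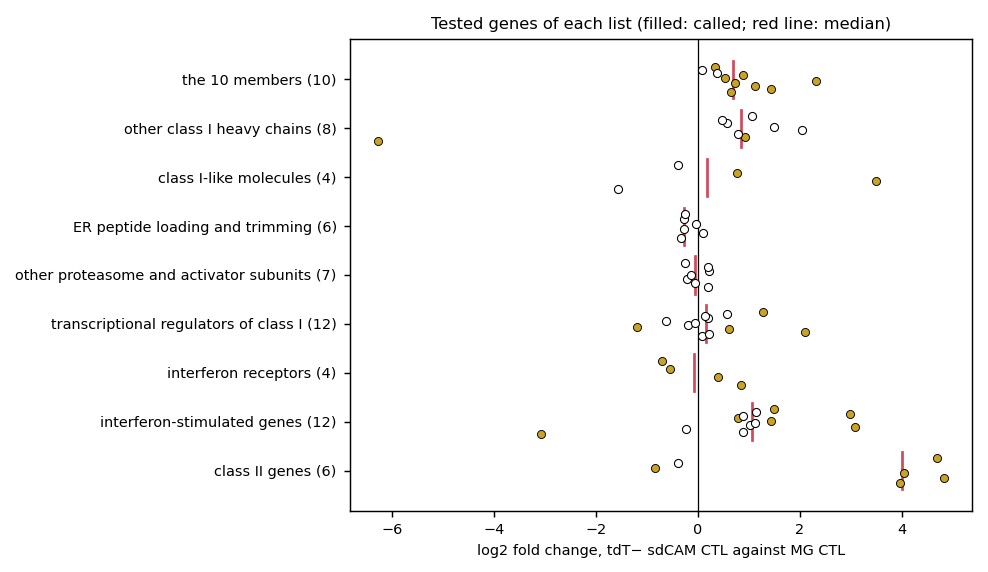
Log2 fold change between tdT- sdCAMs and MG of CTL mice (x axis) for the tested genes of each list, 1 point a gene; filled points passed an adjusted p of 0.05 and the red line is the list's median. The 10 members have a median of 0.68, interferon-stimulated genes 1.07 and genes of peptide loading and trimming -0.27.

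To name the genes whose levels ran most like those of the members, log2(CPM + 1) of each gene was centred over the 23 libraries and compared with the members' mean by root mean square difference, among 5146 other genes with a mean level of at least 5 on the log2 CPM scale. The nearest 8 were Cd48 (0.17), Asah1 (0.18), Dazap2, Npc2, Lamp1, Cmtm3, H2-M3 (0.19) and Pias1 (0.20), beside a median of 0.54 over all genes compared. Cd48, a ligand of the lymphocyte receptor CD244, was 257.5, 314, 442, 479 and 460.2 CPM on average in MG CTL, MG BLZ945, tdT- CTL, tdT- BLZ945 and tdT+ BLZ945. Asah1, Npc2 and Lamp1 encode lysosomal proteins. Of the members themselves, H2-T23 (0.19) and H2-K1 (0.23) lay nearest to their mean and Nlrc5 (0.76), Tap1 (0.45) and Tap2 (0.44) farthest. That mean includes each member, yet all members but H2-T23 lay farther from it than the 8 genes named.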

How the data were processed

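Bulk RNA-seq of 23 sorted libraries in 5 groups was analysed. Per the labels the authors made the libraries with SMART-Seq mRNA LP, while the study's methods name a SMARTer Ultra Low Input kit with Nextera XT for bulk RNA-seq. Neither marks strand. The authors aligned reads with STAR 2.7.11a and deposited raw counts per gene from featureCounts 2.0.6 (version per the labels). Which mouse build served for the table, and how reads matching several genes were handled, are not given in the sources used here. Coordinates are from GENCODE M21 (GRCm38) and sequences from RefSeq GRCm38.p6, independent of the counting.

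Groups followed the labels. Genes passing filterByExpr were tested with edgeR 4.0.16 (glmQLFit and glmQLFTest, TMM factors, R 4.3.3), with Benjamini-Hochberg adjustment over all genes tested, and called at an adjusted p under 0.05. All 10 members passed the filter in each of the 8 comparisons. MG BLZ945 against CTL was fitted on the 10 MG libraries, comparisons among sdCAMs on the 13 sdCAM libraries, tdT- sdCAMs against MG and the interaction on the 20 MG and tdT- libraries, and tdT+ sdCAMs against MG on all 23. The edgeR fit was tested on simulated data. Alternatives were DESeq2 1.42.0, its size factors in edgeR, 2 other count filters, other sets of libraries, a replicate block and leaving out each library.

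Of each pathway list, at most the 3 called genes with the lowest adjusted p per comparison were named. Nfya, Ifnar2, H2-DMa against MG, and H2-Aa, H2-Ab1 and H2-DMb1 between sdCAM groups fall outside that rule and were named after their values were seen, to complete a count. Predicted genes were left out of the nearest genes. The members and lists were chosen with earlier results of these data known. p-values measure the spread between these animals and pools, and counts carry no molecular identifiers. The main fits held no replicate block, so libraries of the same animal or pool counted as independent.

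MG and sdCAM libraries with the same label within a treatment come from the same animals. Their deviations from the group means correlated at 0.11 on average in CTL, at 0.08 in tdT- BLZ945 and at 0.13 in tdT+ BLZ945 pairs, and at 0.07 between tdT- and tdT+ sdCAMs. Between treatments the label is shared by different animals.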

Additional observations from a re-analysis of the deposited data

Results flagged for a closer look

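Of 40 groups of 5 libraries (10 genes in 4 groups), 6 held a library far from the rest by Dixon's criterion, which chance gives in about 1 of 20 groups. For H2-K1 these were MG CTL F3, the highest at 638.6 CPM, MG BLZ945 M2, the lowest at 492.3 CPM, and tdT- sdCAM BLZ945 M2, the lowest at 1008 CPM. For B2m they were tdT- sdCAM CTL F3, the highest at 9894 CPM, and tdT- sdCAM BLZ945 F2, the highest at 13530 CPM. Both B2m libraries also had the highest levels of short transcripts in their groups, by 0.27 and 0.52 on the log2 scale, and its part was not tested. Tapbp was highest in MG BLZ945 M1, at 346.1 CPM.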

How the results depend on the processing

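The number of members called stayed within 1.5 times its value under the alternatives run, except in MG BLZ945 against CTL, where it went from 0 to 1 with DESeq2 (H2-D1) and to 1 without MG CTL F3 (H2-K1). Leaving out 1 library at a time gave 0 to 1 called members there, 6 to 8 for tdT- sdCAMs against MG in CTL, 5 to 6 in BLZ945, 5 to 6 for tdT+ sdCAMs against MG, and 0 in the other comparisons. An alternative chosen after seeing the data left out pool M1 of BLZ945 mice, and 6 members stayed called in tdT- sdCAMs against MG and 0 in the interaction. Nlrc5 had 10 to 238 counts in a library.

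With the animal or label as a replicate block, 8, 6 and 6 members were called in the sdCAM against MG comparisons and 0 in the others. The block changed no call but that of B2m in tdT+ sdCAMs against MG (0.49). Among members not called, it turned the log2 difference of tdT+ from tdT- sdCAMs to -0.060 for B2m, -0.056 for Psmb9 and 0.78 for Nlrc5, and that of Nlrc5 in tdT+ BLZ945 against tdT- CTL to 0.14.

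All reversed signs were of members that were not called, and the cause was not tested. In tdT+ sdCAMs against MG, Tap2 was 0.030 with DESeq2, 0.030 with its size factors and 0.0019 with at least 10 counts in every library, and Tapbp -0.0041 with the looser filter. Without 1 library, these ranged from -0.10 to 0.018 (Tap2) and from -0.13 to 0.12 (Tapbp). The range was -0.23 to 0.027 for Psmb9 in MG BLZ945 against CTL, -0.014 to 0.15 for Tap2 in tdT- sdCAMs against MG of CTL mice, and -0.37 to 0.089 for B2m in the interaction. In tdT- BLZ945 against CTL the ranges were -0.10 to 0.36 (B2m), -0.18 to 0.057 (Tap2), -0.086 to 0.022 (Tapbp), -0.081 to 0.13 (Psmb8), -0.032 to 0.23 (Psmb9), -0.12 to 0.066 (H2-T23) and -0.53 to 0.11 (Nlrc5). In tdT+ against tdT- sdCAMs they were -0.022 to 0.13 (H2-K1), -0.0061 to 0.11 (H2-D1), -0.15 to 0.35 (B2m), -0.10 to 0.15 (Tap1), -0.10 to 0.31 (Psmb9), -0.0075 to 0.18 (H2-T23) and -0.33 to 0.31 (Nlrc5).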
